A study of Mus musculus with 4 samples.

Results

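The genes described here encode the proteins of the cytosolic ribosome, read in resting and activated regulatory T cells (Treg) of mouse spleen. A gene was a member if it was annotated as protein-coding and its symbol began with Rpl or Rps followed by a digit, or was Rplp0, Rplp1, Rplp2 or Rpsa, leaving out the Rps6k kinases. This rule found 92 of the 38924 gene identifiers in the deposited tables, 57 named for the large subunit, 34 named for the small subunit, and Rps19bp1, a protein that binds a ribosomal protein and was matched by its letters alone. Of the 92, 77 were core ribosomal protein genes (46 large, 31 small), 8 were paralogs of a core gene, and 6 carried a pseudogene name while being annotated as protein-coding. The rule did not match Fau, which encodes a ribosomal protein fused to a ubiquitin-like sequence, nor Rack1, a scaffold on the small subunit. Both were read apart from the members.

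The study compared 2 populations, with 2 samples in each, said by the labels to come from separate animals. Resting Treg were sorted as CD4+Foxp3+CD62LhiCD44lo cells. Activated Treg carry exactly that gate in their label as well, so the labels separate the groups by the words resting and activated alone. The sources used here give no treatment, genotype, strain, age or number of pooled animals. Total RNA was amplified with the SMART-seq v4 kit for very low inputs, which marks no single molecules, and the question was how the transcriptomes of these populations differ. A p-value here measures the spread between 2 libraries a group, and fewer cells of a type cannot be told apart from less RNA per cell.

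A ribosome joins a small subunit, which reads the mRNA, to a large subunit, which forms the peptide bond, and each core protein sits in it as a single copy apart from the acidic stalk proteins. Cells make these proteins in matched amounts, and their mRNAs mostly begin with a 5′ terminal oligopyrimidine (5′ TOP) tract, through which mTOR signalling and the RNA-binding protein Larp1 set their translation and stability. T cells are known to raise ribosome production when they leave rest and divide, with Myc as a known driver.

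The start of the mRNA is shown for several members because the TOP tract is what this family is known to share there. Each sequence is the 30-base window from 15 bases before to 15 bases from the annotated start in RefSeq, GRCm38.p6, 5′ to 3′ on the gene's strand, with the longest run of C and T in capitals. The first 4 have some of the longest runs among the members, and the last 4 are members that the results below turn on.
Rpl7a, chr2:26910792-26910821 (+): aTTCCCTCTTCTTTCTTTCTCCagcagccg
Rpl27a, chr7:109519180-109519209 (+): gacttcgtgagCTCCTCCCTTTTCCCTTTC
Rpl35, chr2:39005117-39005146 (-): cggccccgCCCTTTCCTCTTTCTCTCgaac
Rpl15, chr14:18270972-18271001 (-): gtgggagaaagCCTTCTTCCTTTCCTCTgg
Rps6, chr4:86857353-86857382 (-): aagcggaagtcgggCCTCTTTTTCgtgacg
Rpl4, chr9:64173372-64173401 (+): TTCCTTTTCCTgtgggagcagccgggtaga
Rpl5, chr5:107900513-107900542 (+): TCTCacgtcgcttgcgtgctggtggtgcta
Rps3a1, chr3:86142654-86142683 (-): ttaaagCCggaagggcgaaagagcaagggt

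The paralogs are shown because their reads can be confused with those of the parent only where the sequences match. The first 60 coding bases of Rps27 and its paralogs are given, from GENCODE M21 on GRCm38, with bases that differ from Rps27 in capitals.
Rps27: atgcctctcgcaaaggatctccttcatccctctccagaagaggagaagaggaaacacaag
Rps27rt: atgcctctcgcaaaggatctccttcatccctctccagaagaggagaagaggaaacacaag
Rps27l: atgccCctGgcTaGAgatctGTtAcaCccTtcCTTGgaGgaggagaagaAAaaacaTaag
Rps27rt, a copy with 1 exon on chromosome 9, matched Rps27 at all 252 coding bases, whereas Rps27l differed from Rps27 at 60 of them (76.2% identity) and shared no 50-base word of coding sequence with it. Rpl36al was 87.7% identical to Rpl36a over 318 bases, Rpl39l was 85.0% identical to Rpl39 over 153 bases, and Rpl10l was 84.7% identical to Rpl10 over 642 bases.

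The resting libraries, called A and B, held 20699024 and 31851982 counts and the activated ones 29332058 and 20282062. The letters are names, and the labels pair no samples across the groups. Between 18928 and 23398 genes had a count, and mitochondrial genes held 2.57 to 3.05% of counts. All 8 T cell and Treg markers, Foxp3 and Cd3e among them, had counts in every library, with a summed level of 5641 to 6583 CPM in resting and 6152 to 7679 CPM in activated Treg. CPM are counts scaled to a common library total, and a pair of values for a group gives its library A and then its library B. Markers of other spleen cells were present too and are given beside the results.

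Core ribosomal protein genes had slightly and evenly lower values in activated than in resting Treg. None passed the test, and with 2 libraries a group neither did any other gene by edgeR. All 77 had a log2 fold change below 0, with a median of -0.26, so that the typical member stood at 83.4% of its resting level. The values ran from -0.44 for Rpl5 to -0.12 for Rpl37a, or from 73.8% to 92.3% of the resting level. Over all 88 members tested, 83 lay below 0 (edgeR, sign only), where 50.9% of the 14235 genes tested did, and the median was -0.24 against -0.0073 for all genes tested.

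No member passed at an adjusted p under 0.05 by edgeR's quasi-likelihood test, and neither did any other gene, so the share of all genes called was 0%. At an unadjusted p under 0.05, edgeR counted 2 members lower and 0 higher, where 2.61% of all genes tested were lower and 6.3% higher. DESeq2 called 0 members, with 2.71% of its 15382 genes called. By limma, fitted to the regularized log table of the authors, 0 members and 0% of all genes passed, and it counted 2 members lower and 0 higher at an unadjusted p under 0.05, where 2.85% of all genes were lower and 6.78% higher. In these fits the members lay close to the background by the counts of lower genes, and under it by the counts of higher genes. The count depended on the fit. With a replicate block, limma counted 39 of 88 members lower, where 9.85% of all genes were. With no filter on low values it counted 15 of 90, where 1.67% were.

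Both activated libraries lay below both resting libraries in 65 of the 88 members tested and in 63 of the 77 core members, or 73.9% and 81.8%, where 17.4% of all genes tested did so. In none of the 88 tested were both activated values the higher ones, where 19.8% of all genes were so placed. The 14 core members whose groups overlapped were Rpl7a, Rpl13, Rpl24, Rpl27, Rpl28, Rpl30, Rpl34, Rpl37a, Rpl39, Rpl41, Rps2, Rps12, Rps15 and Rps27. Left with one activated library, activated B, 67 of 88 members had it below both resting libraries, where 38.9% of all genes did.

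The spread among members was narrow. The log2 fold changes of core members had a standard deviation of 0.080, below the lowest standard error (SE) of any core member, 0.15, whereas the 2025 other genes at a mean of 100 CPM or more had a standard deviation of 0.39. Those genes had a median of -0.086, and 1320 of the 2025 lay below 0. In 27.4% of them both activated values were under the resting ones. The 153 of them whose mRNA is under 1000 bases, the size range of most ribosomal protein mRNAs, had a median of 0.03. The 79 members at 100 CPM or more had a median of -0.25.

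**Figure D1:**
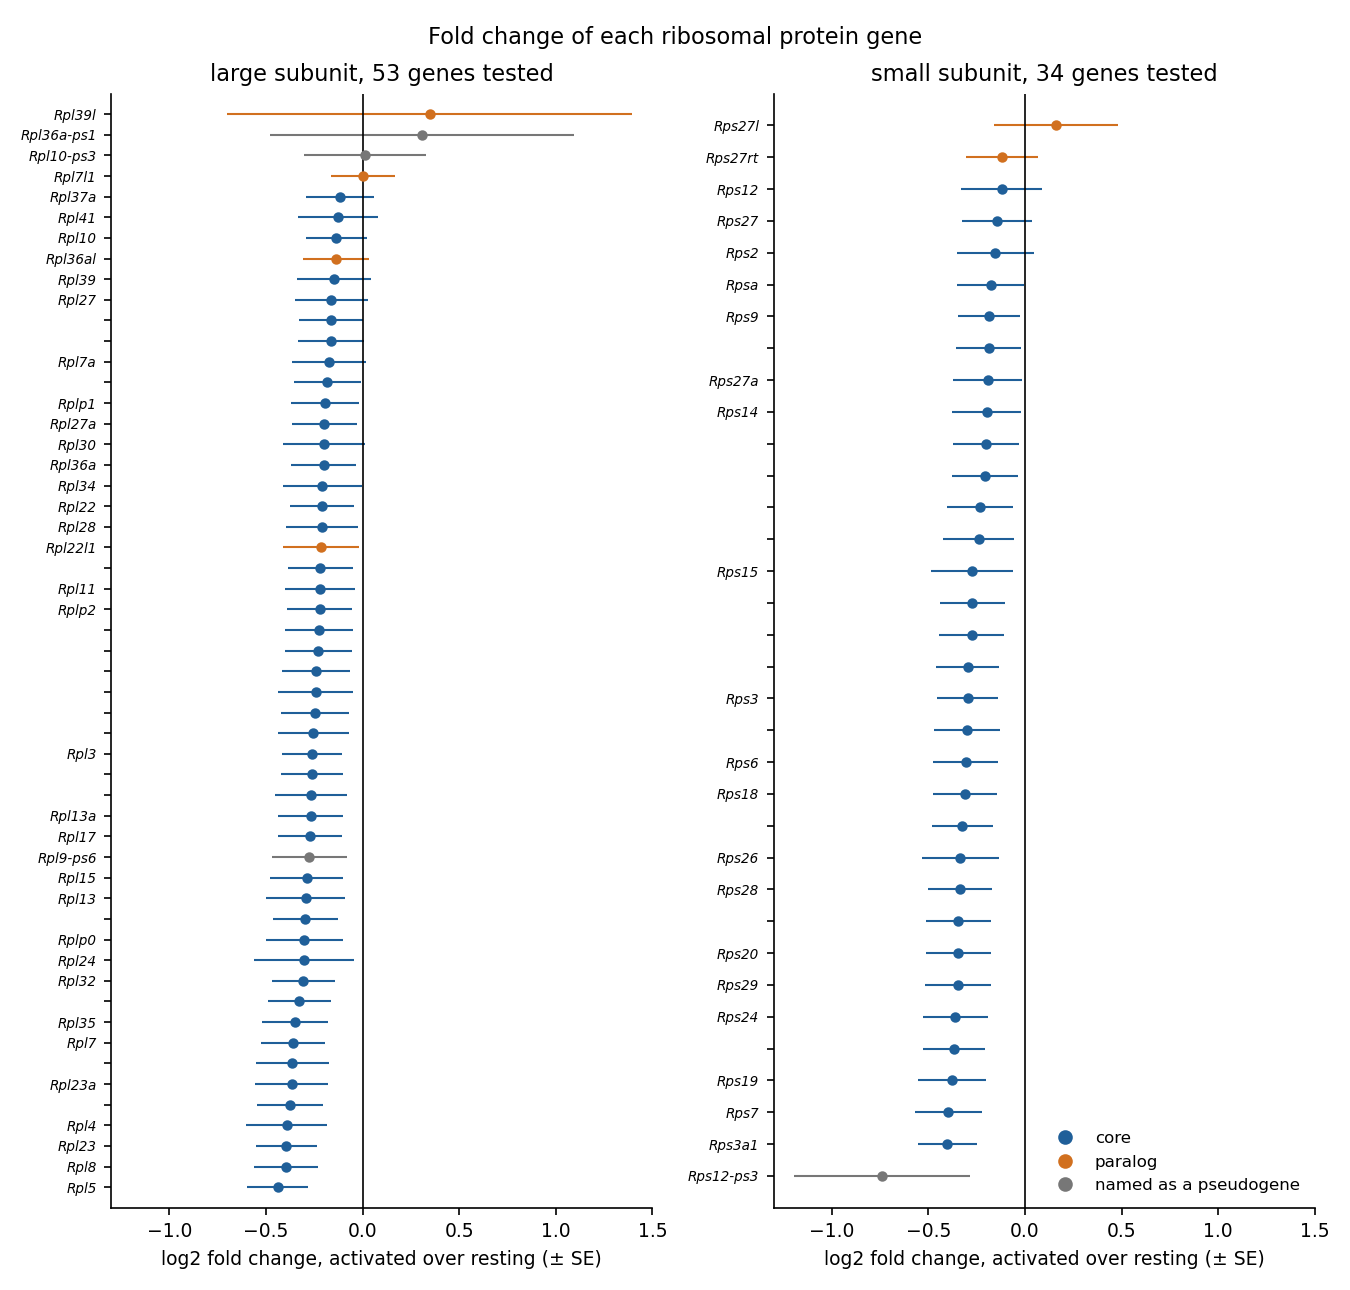
Log2 fold change of activated over resting Treg for each of the 53 large subunit genes (left) and 34 small subunit genes (right) tested, from edgeR, with its SE as the bar and 2 libraries a group; genes named in the text carry their symbol. Every core gene (blue) lies below 0, between -0.44 and -0.12, while the paralogs (orange) and the genes named as pseudogenes (grey) lie on both sides.

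The large and small subunits were lower to a like degree. The median log2 fold change was -0.24 over 46 core large subunit genes and -0.30 over 31 core small subunit genes. Counts of core large subunit genes were 1.24 and 1.25 times those of core small subunit genes in resting Treg and 1.26 and 1.24 times in activated Treg. The ratio had a mean of 1.25 in both groups and did not separate them. As a share of all counts, the 92 members took 7.80% and 7.21% in resting and 6.20% and 6.71% in activated Treg. The groups did not overlap, with group means of 7.50% ± 0.416 (SD, n = 2) and 6.46% ± 0.357, a difference of -1.05 percentage points. An exact permutation test of 2 libraries against 2 cannot go below p = 0.333, so none was run.

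The difference from resting Treg was larger in one activated library than in the other. Relative to each gene's own mean over the 4 libraries, on the log2 scale, the median member stood at 0.15 and 0.12 in the resting libraries, at -0.23 in activated A and at -0.0096 in activated B. Activated A was below activated B in 71 of 77 core members, with a median gap of -0.22 on the log2 scale, about as large as the difference between the groups. Set against single resting libraries, activated A had a median of -0.39 and -0.35 over core members, and activated B had -0.17 and -0.14, the first value in each pair being against resting A. Without activated A, the median over all members tested was -0.12, with 76 of 88 below 0; the large subunit median moved from -0.23 to -0.099 and the small subunit median from -0.29 to -0.18. Without activated B, they were -0.36 for large and -0.38 for small subunit genes.

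**Figure D2:**
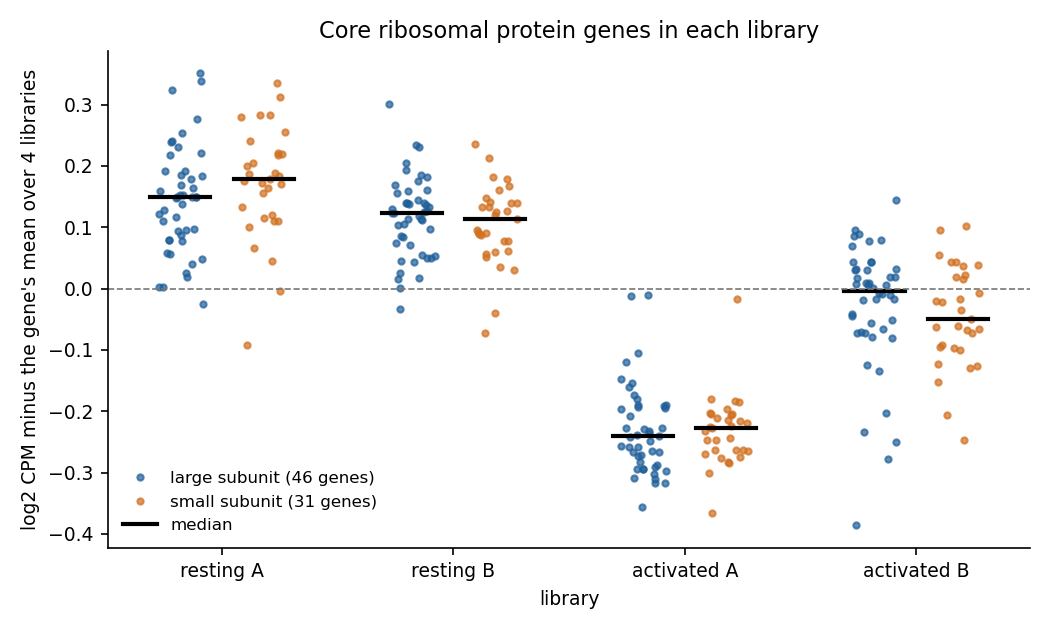
Log2 CPM of each core ribosomal protein gene minus its mean over the 4 libraries, by library, for 46 large subunit genes (blue) and 31 small subunit genes (orange), with the median as a black bar. Resting A and B sit above 0 and activated A below it, and activated B sits near 0, with large and small subunit genes at like heights in each library.

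Markers of other cell types stood at other levels in the groups and in the activated libraries. All 10 plasmacytoid dendritic cell markers lay above 0, with a summed level of 193 to 219 CPM in resting and 479 to 1283 CPM in activated Treg. All 7 conventional dendritic cell markers did too, at 205 to 545 CPM and 1398 to 4105 CPM. The higher of each activated pair was activated A, the library in which ribosomal protein genes were lowest. Of the B cell markers 3 of 7 tested lay above 0 (770 to 996 CPM and 1343 to 2021 CPM), and of the CD8 T and NK cell markers 4 of 5 did (63.0 to 140 CPM and 189 to 219 CPM). Macrophage and monocyte markers (4 of 8 above 0) summed to 481 and 12.6 CPM in resting and 504 and 52.7 CPM in activated Treg. Erythroid and platelet markers (0 of 5 above 0) summed to 26.1 and 0.946 CPM in resting and 14.5 and 1.92 CPM in activated Treg, with Ppbp at 0 in every library. For both of these lists 1 library of each group, the one called A, stood above the other. The part of these cells in the ribosomal protein values was not tested.

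Rpl5 and Rpl11 bind 5S ribosomal RNA in the large subunit and, when free, can bind Mdm2, the ubiquitin ligase of p53. Rpl5 (ENSMUSG00000058558, chromosome 5, 107900502 to 107909005, plus strand, 8 exons, mm10) was at 370 and 353 CPM in resting and 264 and 270 CPM in activated Treg. The groups did not overlap, and the libraries within each lay close together. Its log2 fold change of -0.44 ± 0.16 (SE) was the lowest of the core genes, with an edgeR adjusted p of 0.512 and an unadjusted p of 0.038. Rpl11 was at 519 and 508 CPM in resting and 397 and 485 CPM in activated Treg, giving a log2 fold change of -0.22 ± 0.18. In this gene activated B came close to resting B, so both genes had lower values and Rpl5 had the wider gap.

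The stalk recruits elongation factors to the large subunit. Its base, Rplp0, was at 3093 and 3444 CPM in resting and 2288 and 3017 CPM in activated Treg. Rplp1 was at 1150 and 1073 against 885 and 1058 CPM, and Rplp2 at 835 and 772 against 644 and 735 CPM. In all 3 both activated values were below the resting ones, as in 81.8% of all core members and 17.4% of all genes tested. Activated A was lowest, and the log2 fold changes were -0.30, -0.19 and -0.22. Rplp0 is widely used as a reference gene in quantitative PCR.

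The 5 large subunit proteins listed at the peptidyl transferase centre or the exit tunnel had a median of -0.26. In 4 of them (80%) both activated values were below the resting ones, near the 81.8% of all core members (17.4% of all genes tested). Rpl4, which lines the tunnel, was at 4841 and 3917 CPM in resting and 3769 and 2905 CPM in activated Treg. Here the libraries called A were the higher in each group, the reverse of the pattern in most members within activated Treg, and the 6 core members with activated A above activated B included it. Rpl3 was at 2653 and 2581 against 2084 and 2281 CPM, Rpl17 at 622 and 610 against 476 and 544 CPM, and Rpl10, which joins the large subunit last, at 512 and 499 against 444 and 476 CPM. Rpl39, the smallest of them, was at 178 and 191 against 148 and 185 CPM, where activated B lay between the resting libraries; its log2 fold change was -0.15 ± 0.19 and turned to 0.018 without activated A.

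The 6 small subunit proteins listed at the mRNA channel had a median of -0.24. In 5 of them (83.3%) both activated values were below the resting ones, near the 81.8% of all core members (17.4% of all genes tested). Rps3, at the channel entry, was at 3126 and 2838 CPM in resting and 2335 and 2523 CPM in activated Treg. Rps9, also at the entry, was at 2636 and 2500 against 2122 and 2391 CPM. Rps26 and Rps28, at the exit, had log2 fold changes of -0.33 and -0.33, and Rpsa had -0.18. Rps2 overlapped, at 495 and 558 against 413 and 533 CPM, and its log2 fold change of -0.15 turned to 0.027 without activated A. Rps27a, made as a fusion with ubiquitin, was at 541 and 567 against 437 and 533 CPM, a log2 fold change of -0.19 ± 0.18.

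Among the small subunit genes, Rps3a1 (ENSMUSG00000028081, chromosome 3, 86137940 to 86142702, minus strand, 6 exons) had the smallest unadjusted edgeR p, 0.045, with an adjusted p of 0.534. It was at 2184 and 2027 CPM in resting and 1598 and 1586 CPM in activated Treg, giving a log2 fold change of -0.40 ± 0.15. As in Rpl5, and unlike most members, the activated libraries were nearly equal. Other members with small unadjusted p were Rpl23 (550 and 519 against 417 and 396 CPM) and Rpl8 (1938 and 1736 against 1326 and 1467 CPM). Their log2 fold changes were -0.39 and -0.40. Rps7 completed the 5 lowest fold changes of core genes, at 1156 and 1027 against 770 and 888 CPM and a log2 fold change of -0.40. The groups overlapped in none of these 5 genes, Rpl5 included, which follows largely from picking them by low fold change. In 81.8% of all core members and 17.4% of all genes tested both activated values were below the resting ones.

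Genes in which mutations cause Diamond-Blackfan anaemia, a failure of red cell production, form a further list of 18. All 18 lay below 0, with a median of -0.31, and 16 (88.9%) had groups that did not overlap. That is near the 81.8% of all core members with both activated values below the resting ones, where 17.4% of all genes tested had them. Rps19, the gene most often affected in patients, was at 1753 and 1472 CPM in resting and 1189 and 1293 CPM in activated Treg, giving a log2 fold change of -0.38 ± 0.17. Rps24 and Rps29 had -0.36 and -0.35. Rpl27 (248 and 257 against 200.4 and 251 CPM) and Rps27 were the overlapping ones. The list shares its members with the core set, whose median was -0.26.

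The groups overlapped in 1 of the 6 members, Rpl4 included, whose mRNA starts are printed above with runs of 10 or more C and T bases. Over all core members, 81.8% had both activated values below the resting ones, where 17.4% of all genes tested had them. Rps6, the substrate from which the S6 kinases take their name, was at 1002 and 914 CPM in resting and 724 and 824 CPM in activated Treg, a log2 change of -0.31 ± 0.17. Rpl35, at the exit of the tunnel, was at 477 and 451 against 337 and 390 CPM (-0.35 ± 0.17), and Rpl15 at 493 and 515 against 365 and 460 CPM (-0.29 ± 0.19). Rpl27a was at 258 and 266 against 214 and 243 CPM (-0.20 ± 0.17), whereas Rpl7a, with the longest run, was at 471 and 519 against 389 and 491 CPM and overlapped (-0.17 ± 0.19). Rpl41, which encodes the shortest ribosomal protein, also overlapped, at 973 and 1070 against 796 and 1074 CPM, and Rpl37a at 688 and 656 against 565 and 676 CPM. A further 25 core members had log2 fold changes of -0.38 to -0.16 and a median of -0.24. Their mean levels ran from 143 to 2152 CPM in resting and from 126 to 1849 CPM in activated Treg.

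Levels differed far more between members than between groups. Per kb of mRNA, mean levels of core members ran from 26.1 CPM for Rpl24 to 5062 CPM for Rpl32, a ratio of 194, around a median of 823 CPM. In the large subunit Rpl32, Rpl4 (2509 CPM per kb) and Rpl13a (2462 CPM per kb) were highest and Rpl24, Rpl23a (84.1 CPM per kb) and Rpl5 (154 CPM per kb) lowest. In the small subunit Rps14 (4092 CPM per kb) and Rps9 (3212 CPM per kb) were highest, and Rps20 (201 CPM per kb), Rps12 (416 CPM per kb) and Rps24 (426 CPM per kb) lowest among core genes. This order was nearly the same in every library: across the 77 core genes, which are not independent replicates, the rank correlation of CPM between libraries was 0.988 to 0.997 over the 6 pairs. The 10 members with the most counts took 37.5% and 37.3% of all member counts in resting and 37.6% and 36.8% in activated Treg.

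Such levels rest on how reads shared between copies were counted, which the sources used here do not give. Of the core mRNAs, 76 of 77 shared at least 1 word of 50 bases with transcripts of another gene, 47 shared 50% or more of their words, and the median was 55.5%. Rps3 shared 2.96% and Rpl8 7.86%, whereas Rps27 shared 98.6%. Rpl24 shared 81.7% of its words with 9 genes and was at 17.5 and 21.6 CPM in resting against 14.1 and 17.6 CPM in activated Treg. Rpl23a shared 82.6% with 28 genes and was at 54.8 and 51.4 against 38.0 and 44.4 CPM. Genes that shared as much were nonetheless among the higher ones, such as Rps18 with 86.7% of words and 2622 CPM per kb, and the rank correlation of level per kb with the shared percentage was -0.13 over 77 genes. The fold changes were alike on either side of 50%: the median was -0.26 over 34 tested members that shared under 50% and -0.24 over 54 that shared more. Lengths are those of 1 annotated transcript a gene, and some of those are long, at 3706 bases for Rps20 and 2045 bases for Rpl5.

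**Figure D3:**
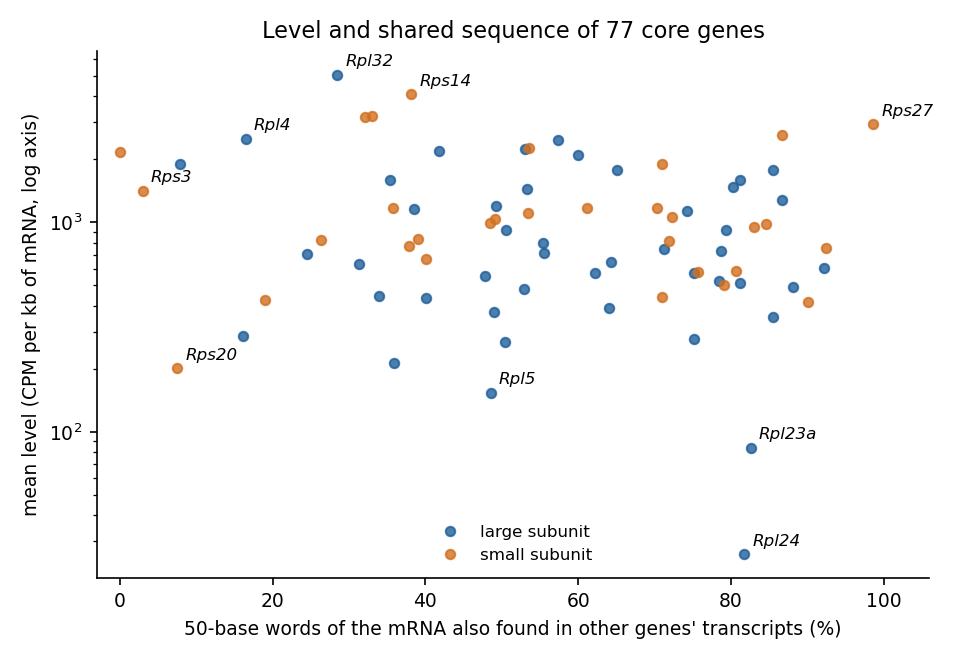
Mean level of each of the 77 core genes (CPM per kb of mRNA, log axis) against the percentage of its mRNA's 50-base words also found in transcripts of other genes, by subunit. Rpl24 (26.1 CPM per kb) and Rpl23a (84.1 CPM per kb) stand alone at the bottom, both with over 80% of words shared, yet genes such as Rps27 with 98.6% shared are near the top.

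The paralogs behaved less evenly than the core genes. Of the 6 that could be tested, 3 lay below 0 and 3 above, with a median of -0.058, and the groups overlapped in each. Rpl7l1 (chromosome 17, 46773907 to 46782672, minus strand), a relative of Rpl7 known from work on ribosome assembly, was at 189 and 195 CPM in resting and 181 and 204 CPM in activated Treg. Its log2 fold change was 0.0026 ± 0.17, while Rpl7 was at 1854 and 1912 against 1356 and 1578 CPM, a log2 fold change of -0.36 ± 0.16. As a percentage of Rpl7, Rpl7l1 stood at 10.2% and 10.2% in resting and at 13.4% and 12.9% in activated Treg, the one testable pair whose percentages did not overlap. The difference of the log2 fold changes was 0.36 and was not tested.

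Rpl22 is a large subunit protein needed by developing T cells, and Rpl22l1 is its paralog. Rpl22 was at 355 and 359 CPM in resting and 291 and 328 CPM in activated Treg, and Rpl22l1 at 156 and 167 against 122 and 156 CPM. Per length, over mRNAs of 474 and 552 bases, the means were 703 and 272 CPM per kb. Rpl22l1 stood at 43.8% and 46.6% of Rpl22 in resting and 41.9% and 47.6% in activated Treg, so the groups overlapped. Rpl36al likewise stood at 53.6% and 65.2% of Rpl36a in resting and 60.0% and 63.3% in activated Treg.

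Rps27l, a known target gene of p53, varied with the library and not with the group. It was at 57.8 and 82.0 CPM in resting and 58.8 and 97.6 CPM in activated Treg, with the largest gap between the activated libraries of any member at 1 CPM or more (-0.73 on the log2 scale). Its log2 fold change was 0.16 ± 0.32. Its parent Rps27 was at 1143 and 979 against 886 and 1034 CPM. Rps27rt, with coding bases identical to those of Rps27, stood at 4.78%, 4.86%, 5.06% and 4.75% of Rps27, a nearly fixed share, and reads of the pair cannot be told apart over their coding sequence.

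**Figure D4:**
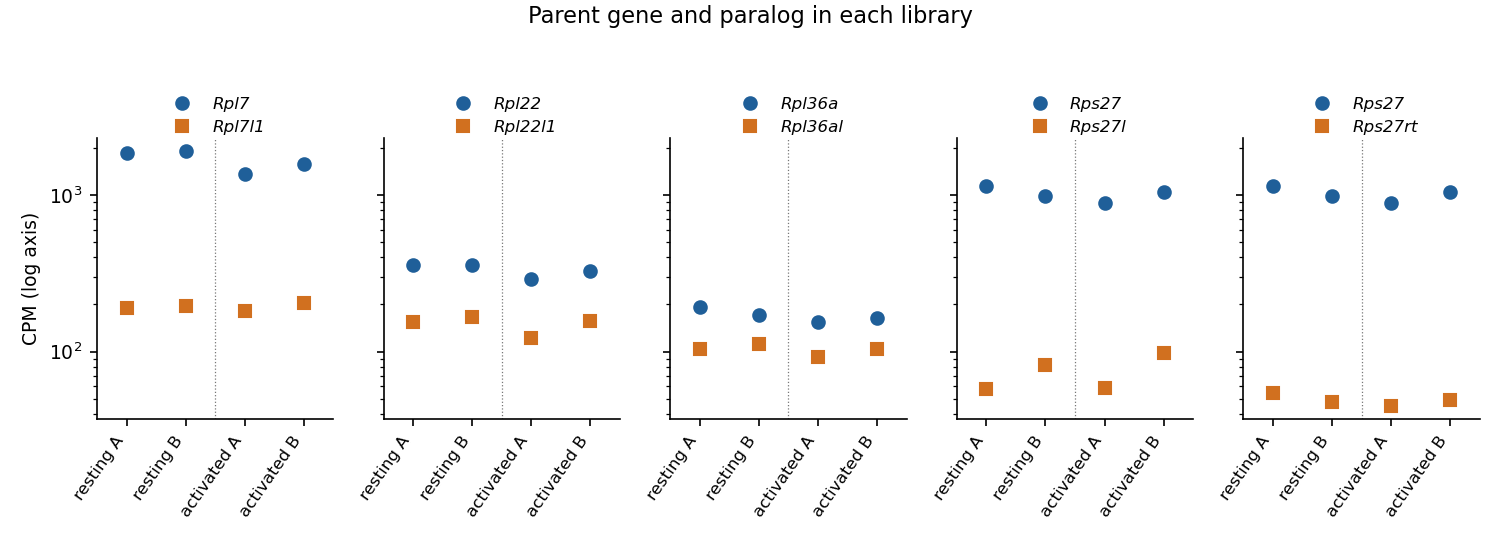
CPM (log axis) of 5 paralogs (orange squares) and their parent genes (blue circles) in each of the 4 libraries, with resting left and activated right of the dotted line. Rpl7l1 stays at 181 to 204 CPM while Rpl7 is lower in activated Treg, and Rps27l is higher in the libraries called B of both groups.

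Other paralogs were at or near the detection limit. Rpl39l, listed elsewhere as a testis form, had 14 and 4 counts in resting and 10 and 14 in activated Treg, and its log2 fold change of 0.35 ± 1.05 rests on those. Rpl10l had no count in any library, and Rpl3l, the muscle form of Rpl3, had 0, 3, 4 and 5 counts. These 2 and the pseudogene-named Rpl36-ps4 (0 in all) and Rpl9-ps1 (0, 4, 0 and 2 counts) were the 4 members under the filter on low counts. A count of 0 allows up to 3 counts in a library, for counting error only.

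Among the other genes carrying a pseudogene name, Rpl9-ps6 was at 124 and 96.9 CPM in resting and 91.9 and 90.3 CPM in activated Treg, and shared 89.2% of its words with other genes. Rps12-ps3 had the lowest log2 fold change of all members, -0.74 ± 0.46, at 2.62 and 4.21 against 1.93 and 2.17 CPM, with 100% of its words shared. Rpl10-ps3 (0.012 ± 0.31) was at 6.47 to 8.28 CPM and Rpl36a-ps1 (0.31 ± 0.79) at 0.243 to 0.493 CPM. Rps19bp1 was at 10.8 and 11.9 against 9.48 and 12.4 CPM, a log2 fold change of -0.057 ± 0.29.

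Genes that work with the ribosome were read from lists. Fau and Rack1 lay below 0, and in both the groups overlapped. Fau was at 730 and 732 CPM in resting and 573 and 734 CPM in activated Treg. Without activated A, Fau turned to 0.015 and Rack1 to 0.071. Of 10 elongation and release factors 9 lay below 0 (median -0.15) and none passed. Eef1a1, which brings aminoacyl-tRNA to the ribosome, was at 11028 and 10827 against 9088 and 8749 CPM (log2 fold change -0.29 ± 0.14), and Eef2, the translocase, at 3371 and 3321 against 2807 and 3318 CPM.

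Of 24 other transcripts known to carry a 5′ TOP tract, 23 lay below 0, with a median of -0.18. The list holds Fau, Rack1, several of those factors and Gas5, which is noncoding. In 10 of the 24 (41.7%) both activated values were below the resting ones, where 17.4% of all genes tested and 27.4% of the other genes at 100 CPM or more were so placed. Npm1, a nucleolar chaperone of ribosome assembly, was at 1277 and 1188 against 995 and 824 CPM, a log2 fold change of -0.44 ± 0.18 with an edgeR adjusted p of 0.58. Tpt1, a translationally controlled protein, had -0.32 ± 0.17. Of 43 ribosome biogenesis genes 33 lay below 0 (median -0.12), and 13 (30.2%) had both activated values below the resting ones, near the share of genes at 100 CPM or more. Of the 2025 other genes at that level, 1320 lay below 0 (median -0.086). Riok1 had -0.38 and Wdr12 -0.36, both factors of subunit assembly. None of the 43 passed by edgeR, DESeq2 or limma, and 0 had an unadjusted edgeR p under 0.05.

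Genes that control ribosome production were split, with 10 of 18 below 0 and a median of -0.050. Myc was at 248 and 289 CPM in resting and 184 and 194 CPM in activated Treg, giving a log2 fold change of -0.51 ± 0.17 (edgeR unadjusted p = 0.032, adjusted p = 0.485). Larp1, which binds the TOP tract, was at 156 and 130 against 108 and 88.8 CPM (-0.54 ± 0.20, unadjusted p = 0.042, adjusted p = 0.529). The groups did not overlap in either gene. In 5 of the 18 (27.8%) both activated values were below the resting ones, and in 3 above them. Of all genes tested, 17.4% and 19.8% were so placed. Of the p53 branch, Trp53 had -0.044 ± 0.18, and Cdkn1a was at 0.583 and 2.67 against 3.14 and 4.93 CPM, a log2 fold change of 1.29 ± 0.78.

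**Figure D5:**
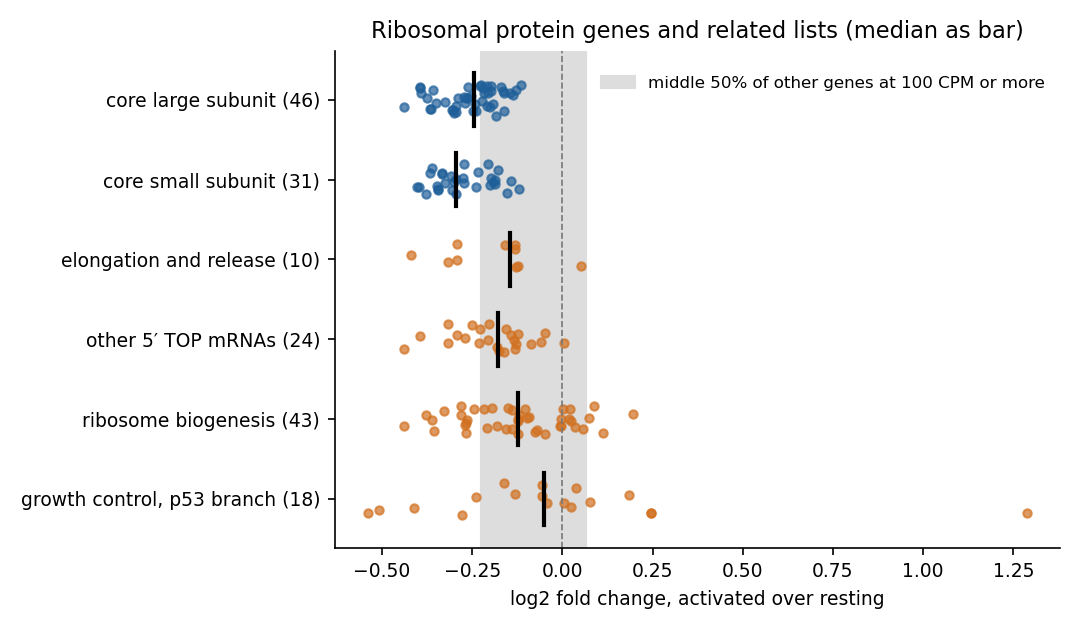
Log2 fold change of activated over resting Treg for the genes of each list, with list medians as black bars and the middle 50% of the 2025 other genes at 100 CPM or more as the grey band. Core ribosomal protein genes (blue) lie at medians of -0.24 and -0.30, and the related lists (orange) have medians between -0.18 and -0.050.

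The sequence around the start was read for members with a RefSeq promoter entry, 66 of 92, of which 57 were core. An unbroken run of 8 or more C or T bases within the 30-base window was present in 23 of the 57 core members (40.4%), against 11.9% of the 10039 tested genes with an entry. Core members with and without such a run had like fold changes, with medians of -0.24 over 23 genes with it and -0.26 over 34 without. The run could lie anywhere in the window, also before the annotated start, as in Rpl4. A TOP tract begins at the first base of the mRNA, so this split cannot compare mRNAs with and without one. Rpl5 and Rps3a1, shown above, have runs of 4 and 2 bases and were the only members under an unadjusted p of 0.05 by edgeR; by limma those were Rpl5 and Rpl23. Among 1172 other genes with a run of 8 or more, the median was -0.0071. In the 300 bases from 250 before to 50 after the start, on either strand, CCGGAA was present in 50.9% of core members and 28.9% of tested genes, CACGTG in 8.77% and 10.1%, and TATAAA in 8.77% and 7.06%.

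Members lay on 20 chromosomes, 14 of them on chromosome 7. Within the bounds of 30 members, on the same strand, lay 58 annotated small nucleolar RNA genes, Rpl4 holding the most with 5. These RNAs guide modification of ribosomal RNA. The hosts, all of them core genes, had a median log2 fold change of -0.27, near the -0.26 of all core members. In 24 of 30 (80%) both activated values were below the resting ones, near the 81.8% of core members (17.4% of all genes tested). The 58 other tested members had a median of -0.24, but they include the paralogs, the genes named as pseudogenes and Rps19bp1. Over the 77 core genes, the rank correlation of log2 fold change with mRNA length was -0.35 and with mean CPM -0.19, so that longer mRNAs tended to have the lower values.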

How the data were processed

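Low-input RNA sequencing of 4 Treg libraries was analysed from 2 deposited tables. The authors' raw counts per gene cover 38924 identifiers, and a second deposited table holds regularized log2 values of the same identifiers. STAR 2.4.0c, featureCounts, DESeq2 and mm10 are named, without roles, in the submitters' processing notes. The sources used here do not give the annotation release, strand setting or treatment of reads with several matches. Headings of the count table repeat 1 replicate number within each group, so its columns were assigned to groups only. The log2 table carries replicate numbers. By its values, library A went with number 1 and library B with number 2 in each group. Rps27l, for one, was at 10.5 and 11.0 in resting 1 and 2. In activated 1 and 2 it was at 10.5 and 11.2.

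Symbols, positions and mRNAs came from GENCODE M21 (37607 identifiers matched), and promoter sequences from RefSeq on GRCm38.p6. CPM were scaled by TMM factors (0.963 to 1.04). Genes were kept by filterByExpr (minimum count 10, total 15), which left 14235, and tested with edgeR 4.0.16 (R 4.3.3) on group alone, adjusted by Benjamini-Hochberg at 0.05. Fold changes use a prior count of 0.125; the SE was derived from the fold change and the F statistic. DESeq2 1.42.0 and limma 3.58.1 were alternatives, beside other scalings, no filter, each library left out, and named pseudogenes added. The procedure was tested on simulated data.

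The members and lists were chosen with earlier results of these data known. Members were named by role list, paralog pair, the 5 smallest p and the 5 lowest and 5 highest fold changes, the 3 highest and 3 lowest levels per kb in each subunit, the 3 widest gaps within a group, and failure of the filter; some genes that this rule picks are not reported here. Other lists gave their 3 smallest p and 2 highest levels. Lists and medians were described and not tested.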

Additional observations from a re-analysis of the deposited data

How the results depend on the processing

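No member passed an adjusted p of 0.05 by edgeR under any of the 10 alternatives to its fit, DESeq2 included. The count of members lower at an unadjusted p under 0.05, 2 in the fit reported, was 1 with DESeq2 size factors in edgeR, 0 with library totals alone, 1 with no filter on low counts, 0 with DESeq2, and 0 to 1 with a library left out. Leaving out each library in turn moved the median log2 fold change of all members between -0.36 and -0.12, of large subunit genes between -0.36 and -0.099, and of small subunit genes between -0.38 and -0.18. The difference in share of counts moved between -1.34 and -0.75 percentage points. The count of members with the remaining activated below the remaining resting libraries, an alternative chosen after seeing the data, moved between 67 and 83, while the share of all genes so placed rose from 17.4% to between 30% and 38.9%. The median over members with under 50% shared words, also chosen after seeing the data, was -0.26. DESeq2 moved the median of all genes to 0.16 and no filter moved it to 0.14; the members' medians there were -0.25 and -0.28.

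Of the 84 members with a value under all 10 alternatives, 74 kept their sign. The 4 tested members with a pseudogene name had no value of their own with named pseudogenes added, and of these Rpl9-ps6 and Rps12-ps3 kept their sign under the other alternatives. Left with 3 libraries, 12 members changed sign for some choice of library. Core genes did so almost only without activated A: Rpl27 ranged from -0.34 to 0.0031, Rpl37a from -0.26 to 0.017, Rpl39 from -0.32 to 0.018, Rpl41 from -0.37 to 0.081, Rps2 from -0.35 to 0.027 and Rps12 from -0.29 to 0.036, the exception being Rps12 without resting B (0.025). Of the rest, Rps19bp1 ranged from -0.27 to 0.13, Rpl7l1 from -0.089 to 0.094, Rps27l from -0.26 to 0.49, Rpl39l from -0.44 to 1.91, Rpl10-ps3 from -0.18 to 0.19 and Rpl36a-ps1 from -0.056 to 0.84. Among other genes named, Fau ranged from -0.36 to 0.015, Rack1 from -0.39 to 0.071 and Trp53 from -0.19 to 0.091. With no filter, Rpl10-ps3 turned to -0.025 and Rpl7l1 to -0.033; with DESeq2 Rpl7l1 turned to -0.0065; with library totals alone Rps19bp1 turned to 0.0020 and Trp53 to 0.015. The cause was not tested.

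On the regularized log values, limma with the replicate number as a replicate block called 2 members, counted 39 lower at an unadjusted p of 0.05, where 9.85% of all genes were, and called 1027 genes higher and 525 lower over all genes. Deviations of libraries with the same number correlated at 0.65, but the labels describe separate animals and there are only 2 numbers. With no filter on low values limma counted 15 members lower, where 1.67% of all genes were, and with a library left out 0 to 2. Counting error is small at these levels, and the biological coefficient of variation over all genes was 0.352.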
